A study of Homo sapiens with 6 samples.

Results

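LINC genes, the long intergenic noncoding RNA genes that carry a systematic symbol of LINC and 5 digits, were examined for histone marks in G401 cells. G401 is a malignant rhabdoid tumor line that lacks SMARCB1, a subunit of the SWI/SNF chromatin remodeler, and it is an established line rather than a set of tumors. Of 56638 genes in the count table, 614 carried such a symbol. The 522 with at least 20 input counts over both treatments are the genes described, and the other 92 included 67 with no input count at all. At the border of this minimum, 2 left-out genes had 19 summed input counts and the first gene kept had 21.

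One group of cells received DMSO, the solvent, and the other 3 µM MAK683, a compound that binds the EED subunit of PRC2 and blocks the complex, both for 3 days. Each treatment had 1 library of H3K27me3, 1 of H3K4me3 and 1 of input, which is chromatin sequenced without an antibody. No difference below therefore has a replicate check, no p-value is given, and the intervals cover counting error only. The libraries held between 13308099 and 21281877 counts, 3 counts corresponded to 0.141 to 0.225 CPM (the count scaled to a library size of 1e6), and SMARCB1 had 0 input counts in both treatments. The deposited counts carry no spike-in scaling, so they give the distribution of reads within a library and not the absolute amount of either mark. The paper reports a massive depletion of H3K27me3 signal across the genome of G401 cells after MAK683.

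PRC2 trimethylates lysine 27 of histone H3, and the resulting H3K27me3 forms broad domains over silent genes, above all over genes of development. H3K4me3 is found in narrow zones at active or poised gene starts, most of which are rich in CpG dinucleotides. Long noncoding RNA genes are transcribed like coding genes, but many are silent outside a few cell types. Some lie next to a transcription factor gene with which they are coexpressed, and others give rise to a microRNA or a small peptide.

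The sequences around 6 of the gene starts are printed here because the H3K4me3 of LINC genes varied with the number of their CpG dinucleotides, which stand in capitals. Each spans 250 bases before the annotated start and 50 after it, on GRCh37 (the build of hg19), 5′ to 3′ on the strand of the gene. LINC01096, LINC01143 and LINC00472 had high levels of both marks in DMSO. LINC01158 had high H3K27me3, and its H3K4me3 counts rose after MAK683 to a level still below input. LINC01003 had the highest H3K4me3, and LINC01047 was low in both marks. The windows are LINC01096 at chr4:13549376-13549675 on the minus strand, LINC01143 at chr2:71114751-71115050 on the plus strand, LINC00472 at chr6:72130399-72130698 on the minus strand, LINC01158 at chr2:105469592-105469891 on the minus strand, LINC01003 at chr7:152160621-152160920 on the plus strand and LINC01047 at chr13:89889095-89889394 on the minus strand.
LINC01096: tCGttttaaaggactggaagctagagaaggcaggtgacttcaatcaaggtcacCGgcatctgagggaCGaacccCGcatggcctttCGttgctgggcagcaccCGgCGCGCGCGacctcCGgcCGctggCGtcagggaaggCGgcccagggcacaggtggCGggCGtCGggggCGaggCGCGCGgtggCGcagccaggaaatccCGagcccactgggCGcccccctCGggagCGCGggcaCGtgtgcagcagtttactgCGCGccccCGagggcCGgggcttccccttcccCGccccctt
LINC01143: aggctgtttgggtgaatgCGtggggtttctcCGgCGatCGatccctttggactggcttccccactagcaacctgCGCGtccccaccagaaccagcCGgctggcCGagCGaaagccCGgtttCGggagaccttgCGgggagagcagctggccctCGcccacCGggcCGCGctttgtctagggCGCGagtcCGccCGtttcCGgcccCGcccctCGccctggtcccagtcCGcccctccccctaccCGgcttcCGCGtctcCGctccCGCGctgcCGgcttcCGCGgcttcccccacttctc
LINC00472: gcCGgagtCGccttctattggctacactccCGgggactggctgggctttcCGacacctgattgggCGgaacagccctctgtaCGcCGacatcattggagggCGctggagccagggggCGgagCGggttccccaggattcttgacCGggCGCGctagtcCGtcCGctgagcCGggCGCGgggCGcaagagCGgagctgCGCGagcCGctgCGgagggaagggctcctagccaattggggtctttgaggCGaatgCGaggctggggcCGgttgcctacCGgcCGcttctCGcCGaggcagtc
LINC01158: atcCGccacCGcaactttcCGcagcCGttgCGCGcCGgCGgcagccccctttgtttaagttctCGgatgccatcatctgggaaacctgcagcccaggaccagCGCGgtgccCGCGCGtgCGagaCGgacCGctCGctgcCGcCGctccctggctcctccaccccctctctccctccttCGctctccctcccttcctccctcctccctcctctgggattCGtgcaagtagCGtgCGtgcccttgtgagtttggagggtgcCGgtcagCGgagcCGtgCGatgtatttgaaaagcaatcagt
LINC01003: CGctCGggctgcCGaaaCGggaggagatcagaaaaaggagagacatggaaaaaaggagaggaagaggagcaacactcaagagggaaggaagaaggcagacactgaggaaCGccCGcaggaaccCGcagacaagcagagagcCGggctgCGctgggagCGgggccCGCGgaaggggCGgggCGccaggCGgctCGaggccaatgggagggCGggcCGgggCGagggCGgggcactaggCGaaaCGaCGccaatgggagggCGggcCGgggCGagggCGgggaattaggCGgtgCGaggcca
LINC01047: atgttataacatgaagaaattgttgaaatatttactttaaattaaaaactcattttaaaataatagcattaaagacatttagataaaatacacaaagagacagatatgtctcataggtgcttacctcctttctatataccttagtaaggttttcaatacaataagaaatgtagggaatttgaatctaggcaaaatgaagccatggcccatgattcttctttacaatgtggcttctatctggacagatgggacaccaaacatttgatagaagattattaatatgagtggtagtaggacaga
The CG dinucleotide occurred 33 times in the windows of LINC01096 and LINC01143, 31 times in that of LINC00472, 28 times in that of LINC01158 and 29 times in that of LINC01003. It was absent from the window of LINC01047, where only 30.3% of the bases were G or C. Windows not printed here show that high H3K4me3 also occurred with few CG. CG occurred 5 times for LINC00533, 3 times for LINC00324 and 10 times for LINC00938, whose H3K4me3 levels were also among the 5 highest. LINC00533 is wholly covered by other genes, and LINC00938 had only 7.03 input counts per kb of annotated span. For both, the counts may not belong to the window described. A window of this length without CG was found for 30 of the 493 LINC genes that could be placed on the genome, and 97.1% of all 20343 promoter windows held at least 1.

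Placed genes had a median length of 20.2 kb, from 0.159 to 718 kb, and 126 of them (25.6%) were on chromosome 13, which held 2.85% of all genes placed. Their input counts per kb of annotated span were within 2-fold of the median of coding genes (25.9 per kb) for 360 genes and below it for 129. For the latter, which include LINC00472, LINC00354 and LINC00599, the annotated span is longer than what the input counts account for, and it may not be the feature that was counted. At least 50% of the span was free of other genes for 408, and 40 were covered entirely. Values of covered genes are uncertain, because the counting rules for overlapping genes and for strand were not stated in the sources used here.

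In DMSO, the median LINC gene stood higher in H3K27me3 and lower in H3K4me3 than the median gene of the table, except among the genes with fewest input counts. A level is the log2 ratio of the CPM of a mark to the CPM of the input of the same treatment. The ratio corrects the counts for gene length and copy number. H3K4me3 levels of LINC genes still fell with length (Spearman rho of −0.29 across 493 genes). A level is called high when it is at least 2 times input. Its 95% exact Clopper-Pearson interval must also lie above the share expected from the library totals. High H3K27me3 was found for 100 of 522 LINC genes (19.2%), against 12.5% of all 29528 genes that passed the same input minimum. The median H3K27me3 level of LINC genes was −0.22, with quartiles of −0.89 and 0.75, and that of all genes was −0.66, that of 442 antisense genes −0.69 and that of 16654 protein-coding genes −0.82. More H3K27me3 than input was present at 230 LINC genes (44.1%) and at 30.9% of all genes. With 1 library, these shares carry no test. When the median gene ratio replaced CPM as the scale, which shifts every gene alike, 184 LINC genes (35.2%) and 24.5% of all genes were high.

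The difference from all genes varied with depth. Among the genes with fewest input counts, from 20 to 159, the median H3K27me3 level was −0.38 for 172 LINC genes and −0.36 for all genes, which is nearly the same. Coding genes (−0.53) and antisense genes (−0.73) of this range were lower than LINC genes. The median of LINC genes was −0.25 against −0.73 for all genes in the middle range of input. In the highest range, above 616 input counts, it was −0.0036 against −0.79.

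High H3K4me3 was found for 46 LINC genes (8.81%) in DMSO, against 22.1% of all genes. The median level was −0.67 for LINC genes, −0.31 for all genes, −0.029 for antisense genes and 0.19 for coding genes. Of the LINC genes, 105 (20.1%) held more H3K4me3 than input, against 40.8% of all genes. The order against all genes depended on depth here too. In the lowest range of input the median H3K4me3 level was −0.32 for LINC genes and −0.42 for all genes, so that LINC genes were slightly higher. They were lower than coding genes (0.30) and antisense genes (1.58) in this range. The median of LINC genes was −0.66 against −0.024 for all genes in the middle range and −0.80 against −0.32 in the highest. Both marks were high at 5 LINC genes (0.958%, background 1.05%), and neither was high at 381 (73%). Across the 522 genes the levels of both marks were weakly inverse, with a Spearman rho of −0.14, and both points of a gene share its input count.

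**Figure D1:**
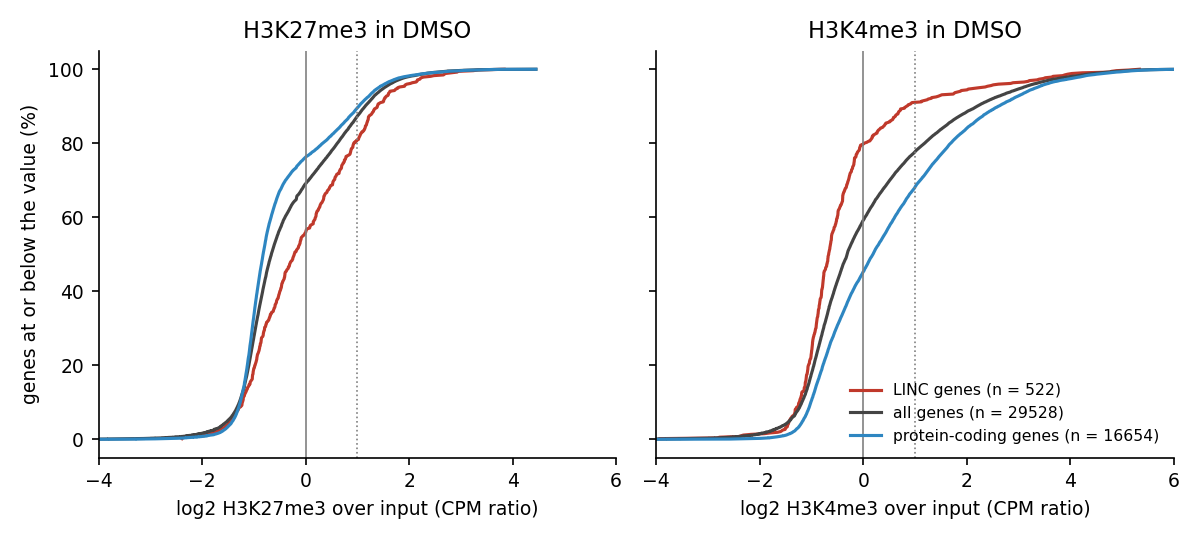
Cumulative share of genes (y axis, percent) at or below a log2 level of H3K27me3 (left) or H3K4me3 (right) over input in DMSO, for 522 LINC genes, all 29528 genes and 16654 protein-coding genes, 1 library each; the solid vertical line marks the input level and the dotted line 2 times input. The LINC curve lies to the right of the others for H3K27me3, with a median of −0.22 against −0.66 for all genes, and to the left for H3K4me3, with −0.67 against −0.31.

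The highest H3K27me3 levels in DMSO belonged to LINC00473, LINC01096, LINC00472, LINC00599 and LINC00682, ranked where the counts compared averaged 50 or more. LINC00473, known as a target of cAMP signaling through CREB, had 158 H3K27me3 counts and 13 input counts in DMSO and 99 and 21 in MAK683. Its level was 3.33 in DMSO and 2.73 in MAK683, the highest of the ranked genes in both. LINC01096 had 223 H3K27me3 and 20 input counts in DMSO and 103 and 29 in MAK683, with levels of 3.24 and 2.34. It lies 1.57 kb from NKX3-2, a homeobox gene of skeletal development.

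LINC00472, described in breast cancer as a candidate tumor suppressor, had 285 H3K27me3 and 32 input counts in DMSO and 125 and 32 in MAK683, with levels of 2.94 and 2.48. LINC00599 is the host gene of one copy of miR-124, a microRNA of neurons, and is now named MIR124-1HG. Its H3K27me3 counts were 509 in DMSO and 230 in MAK683, with 58 and 83 input counts and levels of 2.93 and 2.01. LINC00682 had nearly the same level in both treatments, 2.68 in DMSO and 2.64 in MAK683. Its H3K27me3 counts were 523 and 386 over 71 and 90 input counts. These 5 genes were high in both treatments.

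In MAK683, high H3K27me3 was found for 69 LINC genes (13.2%, background 8.67%), and 66 genes (12.6%, background 7.07%) were high in both treatments. A level in MAK683 is a share of that library and does not say how much H3K27me3 remained. The levels of the 522 genes in DMSO and MAK683 had a Spearman rho of 0.81. The other genes that were high in DMSO were under the threshold in MAK683, where the H3K27me3 library was also the shallowest of the 6.

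**Figure D2:**
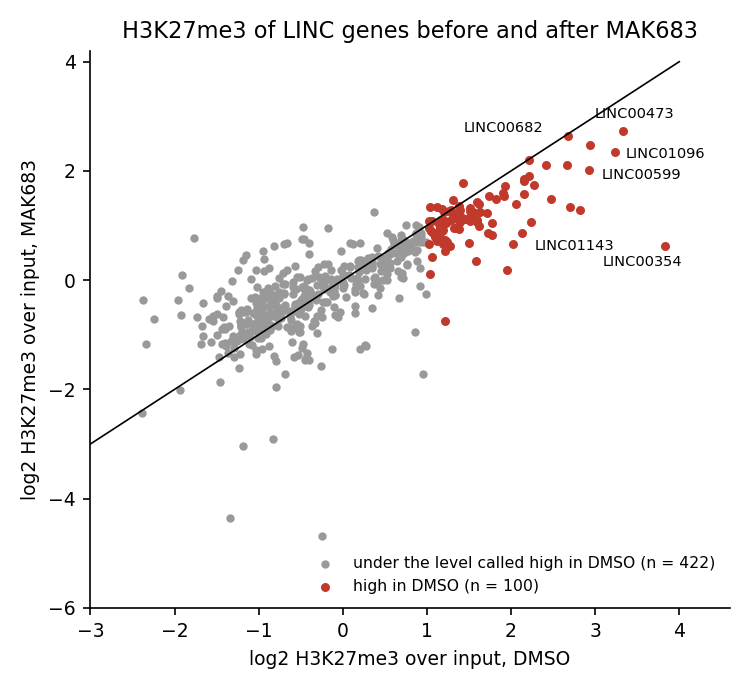
Log2 H3K27me3 over input in DMSO (x axis) and in MAK683 (y axis), 1 point per LINC gene and 1 library per axis; red points were high in DMSO (n = 100) and the line marks equal levels. The red points with the highest levels lie below the line, such as LINC00599 at 2.93 and 2.01, and LINC00354, at 3.84 and 0.63, rests on 5 input counts in DMSO. The lowest point, at −4.68 in MAK683, is LINC00350, which had 20 and 0 H3K27me3 counts.

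High H3K27me3 of LINC genes went with the H3K27me3 of the coding gene nearby. The nearest protein-coding gene of 86 LINC genes with high H3K27me3 had a median level of 0.77, and 52 of these neighbors (60.5%) held more H3K27me3 than input. For the other 385 LINC genes with a measured neighbor the median was −0.61, and 118 neighbors (30.6%) were above input. Across genes, which are not independent replicates and share libraries and sometimes overlap, the Spearman rho between a LINC gene and its neighbor was 0.57 for 94 pairs with a gap of up to 10 kb, 0.27 for 184 pairs 10 to 100 kb apart and 0.25 for 139 pairs more than 100 kb apart. It was 0.44 for 54 LINC genes that overlap their coding neighbor.

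High H3K27me3 was more frequent at LINC genes whose nearest coding gene is a developmental regulator, counted gene by gene. The nearest gene can be distant, such as GATA3 at 1201 kb from LINC00709. Of 43 LINC genes whose nearest coding gene belonged to a list of families of such regulators (SOX, forkhead, GATA, homeobox, bHLH and others), 16 had high H3K27me3 (37.2%), against 76 of 450 other placed LINC genes (16.9%). The share was 5 of 9 for SOX neighbors and 5 of 9 for homeobox neighbors outside the HOX clusters. Genes of 1 locus are counted separately in these shares. SOX1 was nearest to 4 of the high SOX neighbors, and POU3F3 to 2 of the high homeobox neighbors. No share per locus was computed. With a zinc finger regulator as the nearest coding gene, 0 of 10 LINC genes were high.

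SOX1 on chromosome 13 was the nearest coding gene of 4 LINC genes, all of them high in DMSO. LINC00403 overlaps SOX1, and LINC00404, LINC01070 and LINC00354 lie 33.65, 125.6 and 165.9 kb from it. SOX1 itself, a regulator of neural progenitors, had a level of 2.52. LINC00403 had 81 H3K27me3 counts with DMSO and 47 with MAK683 over 14 and 20 input counts, and LINC00404, whose annotated span lies within it, had 67 and 68 over 12 and 21. LINC01070 had 138 and 63 over 39 and 46, a level of 1.62 in DMSO. LINC00354 had 94 and 30 over 5 and 28 input counts, so its level of 3.84 in DMSO rests on very few input counts.

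FOXF1 on chromosome 16, which directs mesenchyme formation in the lung and gut, lies 160.8 kb from LINC00917 and 209.2 kb from LINC01081. LINC00917 had 906 H3K27me3 counts with DMSO and 505 with MAK683 over 178 and 209 input counts. LINC01081 had 1914 and 1106 over 545 and 616. Their levels in DMSO were 2.16 and 1.62, below the 3.05 of FOXF1. LINC00391, which lies 1.13 kb from the neural gene SOX21, had a level of 2.41 from 253 counts over 41 input counts, and SOX21 one of 2.98.

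LINC00261 lies 2.36 kb from FOXA2, a regulator of endoderm, and is known to be coexpressed with it. It had 1661 H3K27me3 counts with DMSO and 1037 with MAK683 over 386 and 520 input counts, with levels of 1.92 and 1.55, and FOXA2 had a level of 2.57. LINC00966, now named MIR124-2HG and another miR-124 host, lies 196 kb from the neuronal gene BHLHE22. Its levels were 1.91 in DMSO and 1.59 in MAK683, from 567 and 323 counts.

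High levels were not always shared. LINC01143 lies 10.6 kb from the eye development gene VAX2 and had a level of 2.13, while VAX2 had −0.47. LINC00632, the gene from which the circular RNA CDR1as derives, had −0.39, while SOX3, 204 kb away, had 73 H3K27me3 counts over 13 input counts in DMSO. The 4 LINC genes nearest to KLF12 ranged from −0.71 to 0.34 and none was high.

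POU3F3 is the nearest coding gene of 3 LINC genes. It is a homeobox gene of the brain, and its own row held 0 counts in all 6 libraries. LINC01158, known as PANTR1, starts 0.104 kb from it and had 1688 H3K27me3 counts with DMSO and 1007 with MAK683 over 568 and 689 input counts. LINC01114 had 558 and 337 over 146 and 169, and LINC01102 had 983 and 726 over 728 and 853. Their levels in DMSO were 1.38, 1.74 and 0.25, and only the first and second were high.

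The highest H3K4me3 levels in DMSO were those of LINC01003, LINC00533, LINC00936, LINC00324 and LINC00938. LINC01003 had 1216 H3K4me3 counts with DMSO and 889 with MAK683 over 23 and 26 input counts, a level of 5.34 in DMSO. It had only 13 and 7 H3K27me3 counts. LINC00324 had 1361 and 967 H3K4me3 counts over 38 and 72, LINC00938 had 1112 and 768 over 31 and 38, and LINC00533, which is wholly covered by other genes, had 398 and 323 over 8 and 19.

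LINC00936, now ATP2B1-AS1 and overlapping the calcium pump gene ATP2B1, differed from the others of this group. It had 745 and 633 H3K4me3 counts over 19 and 55 input counts and was also high in H3K27me3, with 67 counts in DMSO and 48 in MAK683. Its H3K27me3 level fell from 1.59 to 0.35 between the treatments while its H3K27me3 counts moved with the median gene (a difference of −0.043) and its input went from 1.13 to 2.82 CPM.

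H3K4me3 tended to follow the CpG content of the gene start, with exceptions among the highest levels, and H3K27me3 did not. A start was called CpG-rich when its 300-base window had an observed to expected CpG ratio above 0.6 and more than 50% G and C. This held for 107 of 493 LINC genes (21.7%), for 27 of 43 with high H3K4me3 (62.8%) and for 20 of 92 with high H3K27me3 (21.7%). Seen from the other side, 25.2% of CpG-rich LINC genes and 4.15% of the others had high H3K4me3, while 18.7% of each had high H3K27me3. Among all 20343 windows, 50.8% were CpG-rich, but these windows covered only 68.9% of the genes past the input minimum, too few for a comparison with LINC genes. Longer LINC genes had lower H3K4me3 levels (Spearman rho of −0.29 across 493 genes).

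The change after MAK683 was taken as log2((MAK683 + 1)/(DMSO + 1)) of the counts of a mark minus the median over all genes tested, which was −0.43 for H3K27me3 and −0.11 for H3K4me3. Genes needed at least 20 counts of the mark over both libraries. A change was called when it was at least 1.5-fold from the median gene and the 95% exact Clopper-Pearson interval of the share of counts found in MAK683 did not hold the share of the median gene, 42.6% for H3K27me3 and 48.1% for H3K4me3. A call of higher H3K27me3 thus says that a gene kept more of its counts than the median gene. A call of higher H3K4me3 compares counts between the treatments and does not require a level above input.

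For H3K27me3, 504 LINC genes could be tested, and 25 (4.96%) were lower and 36 (7.14%) higher, against 4.36% and 4.78% of all genes. The lower share is near the background and is not a result about LINC genes. Their median change was −0.068. After division by the input of each treatment, 60 LINC genes (11.9%) were lower and 43 (8.53%) higher, against 8.53% and 7.12% of all genes, so that the falls outnumbered the rises on that scale. These calls took the input ratio of a gene as exact, so the counting error of the inputs is not covered. With counts as deposited, without reference to the median gene, 189 were lower and 8 higher, and 441 of the 522 LINC genes had fewer H3K27me3 counts in MAK683 and 74 more. Calls split by level in DMSO, a quantity that shares the DMSO counts with the change. Of the 25 lower genes 17 held more H3K27me3 than input in DMSO, and all 36 higher genes held less. With LINC genes divided into 5 equal bins by the mean H3K27me3 level of both treatments, from lowest to highest, the median change was 0.13, 0.20, 0.042, −0.16 and −0.30.

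Where counts averaged 50 or more, the largest falls of H3K27me3 were those of LINC00354, LINC01143, LINC01136, LINC01082 and LINC00208. LINC01143 had 148 counts in DMSO and 55 in MAK683, so that 27.1% (95% interval 21.1 to 33.8%) of its counts were found in MAK683, a change of −0.98. LINC01136, now BTG2-DT and divergent from the antiproliferative gene BTG2, had 81 and 30, a change of −0.97, although its level in DMSO was below input at −0.44. LINC01082 had 74 and 28, and LINC00208 had 188 and 80 while its input counts were 42 and 103. For LINC00354, with 94 and 30, the change was −1.19.

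The largest rises of H3K27me3 relative to the median gene were at genes with little of it. LINC00668 had 68 counts in DMSO and 103 in MAK683 over 115 and 134 input counts, a change of 1.02, and its level moved from −0.93 to 0.17. LINC01047, whose window without CG is printed above and whose span is wholly covered by other genes, had 91 and 129 over 254 and 252, a change of 0.93. LINC00323 had 45 and 64 over 65 and 98, also 0.93. All 3 had more counts in the shallower MAK683 library, and none reached 2 times input.

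For H3K4me3, 512 LINC genes could be tested, and 33 (6.45%) were higher and 8 (1.56%) lower, against 5.22% and 1.63% of all genes. Both shares are near the background. With counts as deposited, 18 were higher and 16 lower, and after division by input 29 were higher and 29 lower (5.66% each, against 6.89% and 6.32% of all genes). The calls after division again leave out the counting error of the inputs. The median change was 0.12, and H3K4me3 counts were higher in MAK683 at 263 LINC genes and lower at 245. In MAK683, high H3K4me3 was found for 50 LINC genes (9.58%, background 21.1%).

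The rises of H3K4me3 were more frequent where H3K27me3 was high, both among LINC genes and in the whole table. Of 98 tested LINC genes with high H3K27me3 in DMSO, 14 (14.3%) had higher H3K4me3, against 19 of 414 (4.59%) others. In the whole table the shares were 15.6% and 3.76%, and the shares of LINC genes lie near them. In the same 5 bins, from lowest to highest, 1, 6, 5, 8 and 13 LINC genes had higher H3K4me3, and the median change was −0.081, 0.15, 0.13, 0.13 and 0.21. The Spearman rho between the H3K4me3 change and the mean H3K27me3 level was 0.26 across 512 genes.

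**Figure D3:**
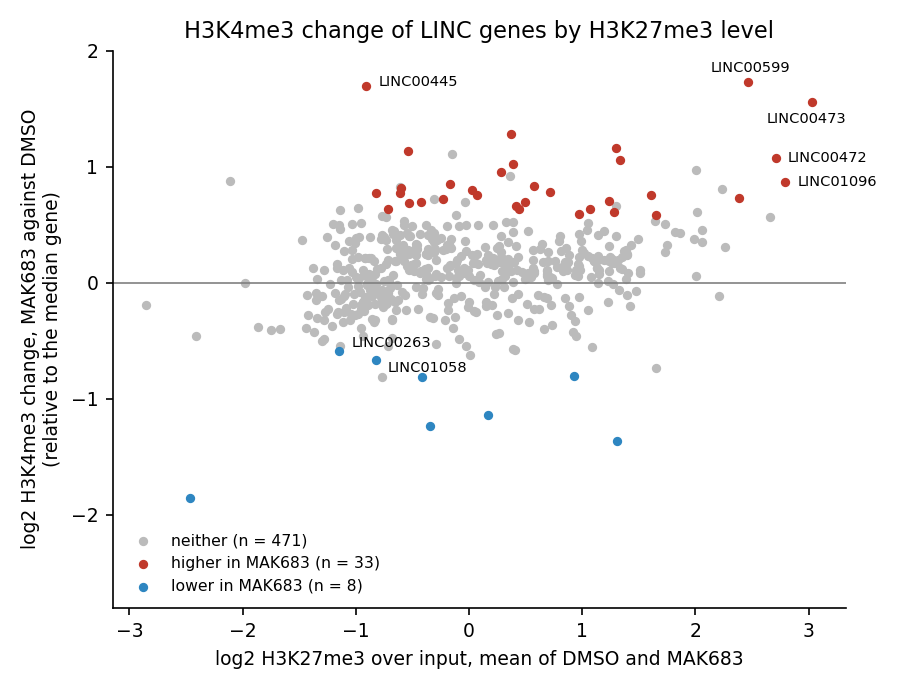
Log2 H3K4me3 change between MAK683 and DMSO relative to the median gene (y axis) against the mean log2 H3K27me3 level of both treatments (x axis), 1 point per tested LINC gene, 1 library per treatment; red points were called higher (n = 33), blue points lower (n = 8). Labels mark only some of the named genes, so the labeled points do not stand for all genes at their level. The 4 labeled points farthest to the right, LINC00473, LINC01096, LINC00472 and LINC00599, rose by 0.87 to 1.73. LINC00682, unlabeled at a mean level of 2.66, had a change of 0.57 that was not called. LINC00445 at upper left rests on 5 and 17 counts.

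By both calls, 5 LINC genes were lower in H3K27me3 and higher in H3K4me3, LINC00599, LINC00472, LINC01096, LINC00208 and LINC00368. They were 1% of the 498 LINC genes tested for both marks, and 0.58% of all 26193 such genes had both calls. LINC00599 had 96 H3K4me3 counts with DMSO and 297 with MAK683, of which 75.6% (71.0 to 79.7%) were in MAK683, a change of 1.73. Its H3K27me3 changed by −0.71, with 31.1% (27.8 to 34.6%) of the counts in MAK683. LINC00472 had 195 and 381 H3K4me3 counts, and its H3K4me3 level went from 2.24 to 3.53 as its H3K27me3 changed by −0.75 and its input stayed at 32 counts.

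LINC01096 had 61 and 104 H3K4me3 counts, a change of 0.87, beside an H3K27me3 change of −0.68. LINC00208 had 49 and 71, a change of 0.64, but its input rose more than its H3K4me3, and over input the sign turned to −0.43. LINC00368 had 41 and 63, a change of 0.72 from a level below input in DMSO (−1.07), beside 87 and 41 H3K27me3 counts. It is named as one of these 5 after its values were seen.

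LINC00473 showed a rise of H3K4me3 without a call for H3K27me3. It had 25 and 70 H3K4me3 counts, a change of 1.56, with 73.7% (63.6 to 82.2%) of them in MAK683, and its H3K27me3 changed by −0.24. LINC01158 had 449 and 677 H3K4me3 counts, a change of 0.70, with a called rise and an H3K27me3 change of −0.31. Its H3K4me3 level stayed below input, at −0.68 in DMSO and −0.034 in MAK683. LINC00644 with 39 and 66 counts and LINC00604 with 40 and 66 rose by 0.86 and 0.82, and both had less H3K27me3 than input in DMSO. Their H3K4me3 levels were below input in both treatments, −1.24 and −0.66 for LINC00644 and −1.58 and −0.56 for LINC00604. LINC00682, whose H3K27me3 counts fell with the median gene (a difference of −0.0074), had 157 and 216 H3K4me3 counts. Its H3K4me3 change of 0.57 did not reach 1.5-fold.

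Falls of H3K4me3 came mainly from genes with few counts or with high H3K4me3 in DMSO. LINC01058 had 370 counts in DMSO and 216 in MAK683, a change of −0.66, and LINC00263, known as OLMALINC from oligodendrocyte maturation, had 635 and 390, a change of −0.59. LINC00853 followed with 63 and 39, and its change of −0.57 was not called. The 46 LINC genes with high H3K4me3 had a median change of −0.25, and 7 of them lay above 0. In all genes with high H3K4me3 the median was −0.20.

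**Figure D4:**
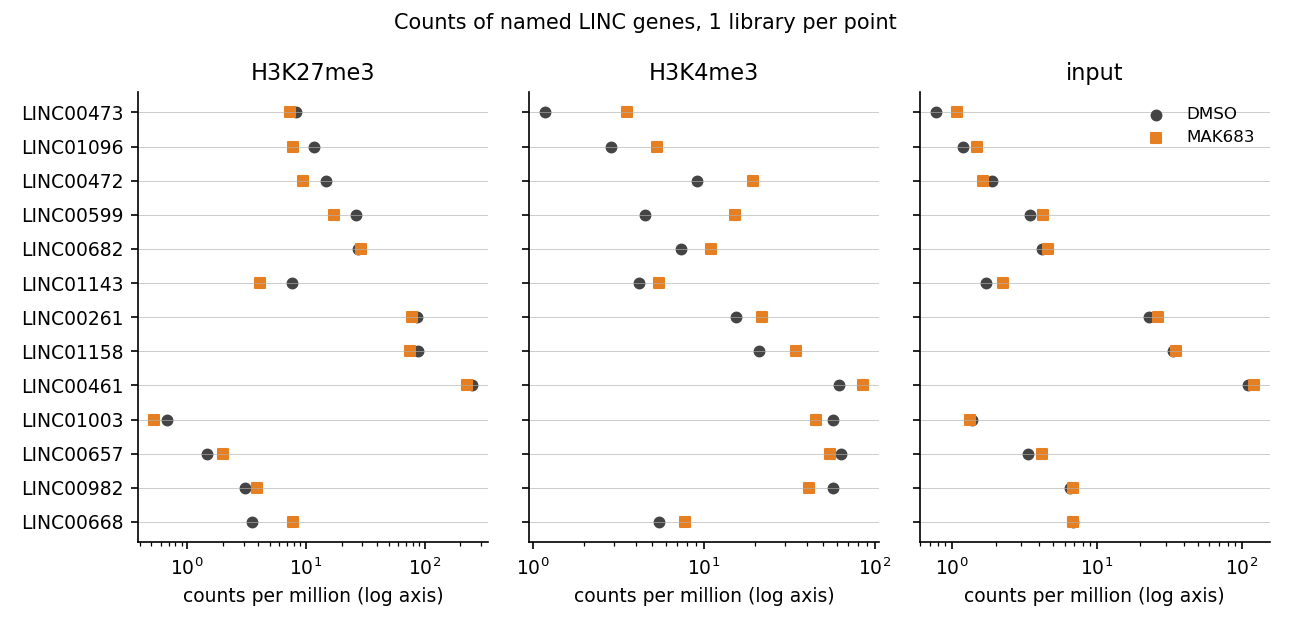
CPM of H3K27me3, H3K4me3 and input (x axes, log scale) for 13 LINC genes in DMSO (dark circles) and MAK683 (orange squares), 1 library per point and no error bar. In the 4 upper rows, LINC00473 to LINC00599, the orange squares lie to the right for H3K4me3 and to the left for H3K27me3, while LINC01003, LINC00657 and LINC00982 lie far to the right only in H3K4me3, where their orange squares are the lower ones.

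LINC genes with a known product or role were followed as a list of 19, of which 17 passed the input minimum. Of these, 9 held more H3K27me3 than input in DMSO, 5 were high in H3K27me3 and 3 high in H3K4me3, beside 30.9%, 12.5% and 22.1% of all genes. H3K27me3 was lower after MAK683 at 1 of them and higher at 0 (4.36% and 4.78% of all genes), and H3K4me3 was higher at 3 and lower at 0 (5.22% and 1.63%). With 17 genes, nothing particular to the list is read from these counts. The 3 were LINC00473, LINC00599 and LINC01158, described above.

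The high H3K4me3 genes of this list were LINC00657, LINC00493 and LINC00982. LINC00657, known as NORAD, binds Pumilio proteins and protects chromosome number. It had 1351 and 1076 H3K4me3 counts over 56 and 81 input counts and 28 and 27 H3K27me3 counts, with an H3K4me3 level of 4.23 in DMSO. LINC00493, which encodes the small protein SMIM26, had 532 and 399 over 25 and 30, a level of 4.03, but its span is mostly shared with other genes. LINC00982, the divergent transcript of PRDM16, had 1206 and 812 over 110 and 133, a level of 3.11.

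Host genes of microRNAs took up much of the rest, and the mature sequences of the microRNAs they carry are given with the seed (bases 2 to 8) in capitals, as listed by RefSeq on GRCh38.p14. LINC00461 and LINC00925 host copies of the same mature miR-9, so they share 1 seed, and LINC00478, known as MIR99AHG, hosts 3 microRNAs with 3 different seeds.
miR-9-5p: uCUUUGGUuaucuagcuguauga
miR-99a-5p: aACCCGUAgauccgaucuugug
let-7c-5p: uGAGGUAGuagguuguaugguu
miR-125b-5p: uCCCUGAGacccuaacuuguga
LINC00461 had 4808 H3K27me3 counts with DMSO and 3031 with MAK683 over 1867 and 2372 input counts, with levels of 1.18 and 0.91 and no called change. LINC00925 had 635 and 411 over 389 and 534, a level of 0.52, and 900 and 962 H3K4me3 counts, a level of 0.87. LINC00478 was low in H3K27me3, with 3201 and 2696 counts over 6526 and 6974 input counts and a level of −1.21. The 2 miR-9 hosts thus held more H3K27me3 than input and the miR-99a host less.

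Genes of small peptides lay on both sides of input in H3K27me3. LINC00948, which encodes the SERCA inhibitor myoregulin, had 159 and 121 H3K27me3 counts over 247 and 243 input counts, a level of −0.82. LINC00961, which encodes the SPAR polypeptide of amino acid signaling, had 18 and 15 over 40 and 60. LINC00116, which encodes the mitochondrial peptide mitoregulin, was above input with 317 and 160 over 205 and 260, a level of 0.44 in DMSO. Its change of −0.55 did not reach 1.5-fold.

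The remaining genes of the list had no called change in either mark. LINC00152, known as CYTOR and expressed in many tumors, had a level of −1.17 with 172 and 161 H3K27me3 counts over 341 and 355 input counts, and its span is wholly shared. LINC00511 had 4843 and 3799 over 3753 and 4361, a level of 0.18, and LINC00299 had 1917 and 1266 over 1344 and 1526, a level of 0.33. LINC00632 had 305 and 271 over 352 and 458.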

How the data were processed

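G401 cells were treated with DMSO or MAK683 and 6 libraries were analysed, 1 for each antibody or input in each treatment. After trimming with Trim Galore 0.4.4, the authors mapped the reads to hg19 (Bowtie2), filtered repeats using Picard 2.23.6 and deposited whole-number counts per gene from featureCounts, without the Drosophila spike-in scaling that their methods describe. The annotation, the counted part of a gene and the strand setting were not given in the sources used here.

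All genes of the table entered each computation, and the LINC genes were read from it. Members, lists and thresholds were chosen with earlier results of these data known. Levels were ratios of CPM with a pseudocount of 0.05 CPM, changes used a pseudocount of 1 count, and scipy 1.17.1 gave exact Clopper-Pearson intervals (numpy 2.4.6, pandas 2.3.3, matplotlib 3.10.9, Python 3.11.15). Symbols were matched to GENCODE release 44 on GRCh37, 421 LINC genes by the same symbol, 72 by an older one listed by RefSeq and 29 not at all, LINC00473 among these. Of the matched genes, 26 were annotated as protein-coding, and LINC00444 was matched to SUCLA2 and LINC01059 to GRAMD1B. Spans, nearest coding genes, overlaps and promoter windows come from GENCODE. For these 26 genes the span and window are therefore those of a coding gene.

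The genes named were the 5 highest H3K27me3 levels in DMSO and the 3 highest in MAK683, the 5 highest H3K4me3 levels in DMSO, the 5 largest falls and 3 largest rises of H3K27me3, the 5 largest rises and 3 largest falls of H3K4me3, all with a mean of at least 50 counts, a list of 19 LINC genes of known role, up to 6 genes beside developmental regulators, and SMARCB1. The other genes of a locus, the 5 genes with both calls, LINC00445, LINC00350 and LINC01046 were named after their values were seen. The computation was tested on simulated counts. Alternatives changed the scale between libraries, thresholds, pseudocounts, count minimums, chromosomes, overlaps and the input used. RNA-seq, ATAC-seq and bisulfite data were not analysed here.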

Additional observations from a re-analysis of the deposited data

Results flagged for a closer look

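Among the 92 LINC genes under the input minimum, 2 had at least 50 H3K4me3 counts in a treatment and a level called high there. LINC00115 had 246 H3K4me3 counts with DMSO and 149 with MAK683 over 8 input counts in each treatment. LINC00685 had 28 H3K4me3 counts with DMSO and 54 with MAK683 over 3 and 2 input counts. LINC01046 was left out by this count, with 19 H3K4me3 counts over 1 input count in DMSO and 14 over 16 in MAK683. Both genes were singled out because the signal lies in genes that no comparison above used, and their part of the genome was not examined further.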

How the results depend on the processing

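No paired analysis was possible because each treatment had 1 library per antibody, and no replicate could be left out for the same reason. Of the recomputed counts and medians over LINC genes, 85 stayed within 1.5 times the reported count or within the 95% interval of the reported median, 28 moved further and 3 changed sign, and of 763 recomputed changes of named genes 716 stayed within the counting interval of the reported change. The sign turned for 23 of the 763, of which 22 were changes that had not been called and 1 had. With counts as deposited, H3K27me3 was lower at 189 and higher at 8 LINC genes with a median of −0.50, and H3K4me3 was lower at 16 and higher at 18 with a median of 0.012. With a 2-fold threshold the H3K27me3 counts were 8 lower and 12 higher and the H3K4me3 counts 4 lower and 9 higher, and with at least 100 counts of the mark they were 13 and 21 and 1 and 20. After division by input, 60 LINC genes were lower and 43 higher in H3K27me3, 29 lower and 29 higher in H3K4me3, the median H3K4me3 change was 0.080, and the H3K4me3 change of LINC00208 turned to −0.43. The intervals of these calls do not cover the counting error of the inputs. On autosomes 4 were lower in H3K4me3. In CPM the median H3K27me3 change turned from −0.068 to 0.029.

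Levels depended most on the scale between mark and input. With the median gene ratio in place of CPM, high H3K27me3 was found for 184 LINC genes in DMSO and 144 in MAK683, with medians that turned to 0.44 and 0.39, and the median H3K4me3 levels were −0.35 and −0.37. At 1.5 times input, 126 LINC genes were high in H3K27me3 in MAK683. With a pseudocount of 1 CPM the median H3K4me3 levels were −0.56 and −0.46. With at least 100 input counts, 25 and 27 LINC genes were high in H3K4me3 in DMSO and MAK683, and the median in MAK683 was −0.62. The cause of these differences was not tested, apart from the smaller number of genes under stricter minimums. Depth limits the genes with few input counts, such as LINC00354 with 5 in DMSO. Without a spike-in scale, the absolute loss of H3K27me3 that the paper reports could not be measured from these counts.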
